A study of Mus musculus with 3 samples.

Results

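Cholesterol is made from acetyl-CoA in a chain of enzymes that runs through mevalonate, isoprenoid diphosphates, squalene and lanosterol. The 7 genes described here stand along that chain and at its feedback control. They are Hmgcs1, Idi1, Fdft1, Sqle, Lss, Dhcr7 and Insig1, and they were taken by gene symbol from the array's platform annotation, which gave 11 of the 38880 probes on the array and 7 of the 19909 genes measured. Expression was compared in cortices dissected at E15.5 (embryonic day) from Snf2l-Ex6DEL mice, in which exon 6 of Snf2l (now Smarca1, an ISWI chromatin remodeller) is deleted, and from wild type controls, both of the 129Sv genetic background. Each of 3 two-colour arrays set mutant RNA against wild-type RNA. Replicates 1 and 2 are a dye swap of 1 mutant and 1 wild-type RNA, and replicate 3 compares the second RNA of each genotype, so that n = 2 biological pairs, with 2 samples per genotype. Mutant RNA carried Cy5 on replicates 1 and 3 and Cy3 on replicate 2. The labels do not say in which cells the deletion was made or whether animals were pooled.

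All values below are log2 ratios of mutant over wild type. The direction is likely, from the labels' order of the channels and the study's naming of mutant versus control, but it is not stated, and if the ratio was formed the other way every sign turns. A ratio holds no level, so that the presence of the tissue's own markers could not be checked, and fewer cells of a type and less RNA per cell cannot be told apart. The targeted gene, Smarca1, read -0.02, 0.36 and 3.11 on replicates 1 to 3. Where its 1 probe lies with respect to exon 6 is unknown here, and the values therefore do not check the labels. Array medians were 0.009, 0 and 0.001. These were also the most frequent values, held by 11.7% to 21.9% of probes and read as spots without signal in either channel, which the values do not prove, and 0 of the 11 probes of the cholesterol genes were at them on any array. Shares of all genes given below include genes at these values unless stated otherwise. In them 0.009 and 0.001 count as above 0, and 0 counts as neither sign.

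Cells of the embryonic brain make most of their own cholesterol, which growing membranes and Hedgehog signalling need. When sterols are scarce, the escort protein SCAP takes the SREBP transcription factors from the endoplasmic reticulum to the Golgi, where proteases free their active part, and the genes of the chain are transcribed together. INSIG proteins hold SCAP back when sterols are plentiful, and Insig1 is itself an SREBP target. SREBPs bind sterol regulatory elements and related E-boxes, usually beside sites of NF-Y (CCAAT boxes) and SP1 (GC boxes).

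RefSeq promoter windows (build GRCm38.p6, 250 bases before to 50 after a start) were at hand for 5 of the 7 genes, in 7 windows, and not for Fdft1 and Sqle. The windows of Hmgcs1, Insig1 and Lss are shown because they stand for 3 patterns on the arrays described below: opposite signs in the dye swap, opposite signs in the pairs, and a mean above 0 on all arrays. Capitals mark the sterol regulatory element TCACCCCAC (Hmgcs1), the palindromic E-box CACGTG (Insig1) and CCAAT boxes, which read ATTGG on the strand shown.
Hmgcs1, chr13:119690101-119690400, plus strand: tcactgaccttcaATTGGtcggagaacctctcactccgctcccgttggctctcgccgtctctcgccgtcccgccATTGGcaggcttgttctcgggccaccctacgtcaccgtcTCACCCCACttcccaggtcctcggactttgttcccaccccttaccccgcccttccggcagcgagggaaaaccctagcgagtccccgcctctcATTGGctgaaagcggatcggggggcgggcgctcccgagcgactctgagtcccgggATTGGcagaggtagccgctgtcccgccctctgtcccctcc
Insig1, chr5:28071162-28071461, plus strand: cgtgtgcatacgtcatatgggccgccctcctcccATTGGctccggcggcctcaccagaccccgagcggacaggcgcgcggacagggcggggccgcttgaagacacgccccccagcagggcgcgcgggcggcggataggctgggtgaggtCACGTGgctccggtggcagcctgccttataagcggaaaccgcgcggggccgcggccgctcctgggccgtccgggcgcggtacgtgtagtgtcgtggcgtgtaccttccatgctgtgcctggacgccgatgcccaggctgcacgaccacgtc
Lss, chr10:76531355-76531654, plus strand: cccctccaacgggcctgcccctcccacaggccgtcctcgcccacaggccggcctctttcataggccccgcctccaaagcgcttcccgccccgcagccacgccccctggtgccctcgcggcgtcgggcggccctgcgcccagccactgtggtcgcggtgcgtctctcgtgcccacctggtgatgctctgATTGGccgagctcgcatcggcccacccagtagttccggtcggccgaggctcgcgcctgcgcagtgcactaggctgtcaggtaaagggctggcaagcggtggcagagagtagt

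Both strands were searched for each motif, and no match overlapped one of another motif. TCACCCCAC was found in 0.551% of 32851 mouse promoter windows and, among the members, in that of Hmgcs1 alone, with its first base at position -137 from the start. CACGTG was in 7.15% of windows and in 1 window each of Insig1 and Dhcr7. CCAAT was in 37.4% of windows and in 5 of the 7 member windows, 4 times in that of Hmgcs1. GGGCGG, the GC box, was in 35.7% of windows and in 6 of the 7. Both were in at least 1 window of each of the 5 genes, but Dhcr7 had 3 windows and the others 1 each, so that genes and windows are unlike counts. A match describes letters and not a bound site, and the arrays hold no data on binding.

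The ratios of the 7 genes between mutant and wild-type cortex had no common sign, and no test of the 7 as a set was run. Squalene synthase, Fdft1, was the exception in size, at a mean of -2.42 ± 0.51 (limma's moderated SE, n = 2 pairs), and the means of the other 6 lay between -0.18 and 0.49. No member passed limma's moderated test over all features, with adjusted p from 0.852 to 0.997, and neither did any of the 28332 features (0.0%), at a threshold of 0.05. At an unadjusted p of 0.05 there was 1 member, Fdft1, beside 715 features (2.52%). The median of the 7 means was -0.03, and that of all genes was -0.04. With 2 pairs an exact sign-flip test of any single gene cannot give a p below 0.5, so that limma's p-values draw on the spread of all features.

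**Figure D1:**
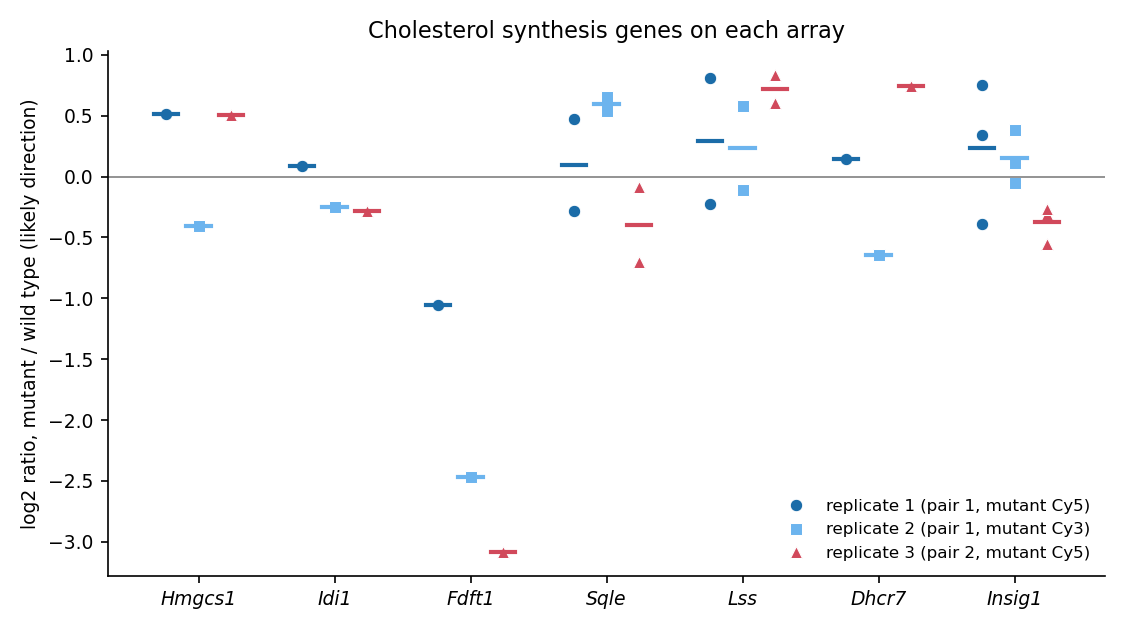
Log2 ratio of mutant over wild type (vertical axis) for each of the 7 genes, with a point per probe and a short bar for the mean of the probes on each of the 3 arrays. Fdft1 lies below -1 on every array, and the probe values of the other 6 genes lie between -0.71 and 0.84.

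Fdft1 joins farnesyl diphosphates to squalene, the step that commits the chain to sterols. Its 1 probe read -1.06, -2.46 and -3.08 on replicates 1 to 3, ratios at which mutant RNA was 2.08-, 5.52- and 8.47-fold below wild type. All 3 arrays and both pairs were thus on the same side of 0, with pair 1 (the mean of replicates 1 and 2) at -1.76 and pair 2 at -3.08. The mean of -2.42 amounts to 5.36-fold lower, with a 95% interval from -4.52 to -0.33, an unadjusted p of 0.0378 and limma's adjusted p = 0.852. The test thus did not call the difference, and the interval is not adjusted for the number of features.

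Of all genes, 14.9%, 4.03% and 1.53% lay at or below Fdft1 on the 3 arrays, and 0.794% did by their mean. It was the only member at least 1.5-fold below 1 on all arrays, where 1.9% of genes were, and 0 members were as far above, where 1.02% were. In either direction the share was 2.93% of all genes. It was 4.34% of the 15007 genes with values on all arrays once spots at the most frequent value were left out. On every array 7 other genes lay at or below its value. The array held no other probe annotated to Fdft1, so its ratio could not be compared between probes. The same RNAs gave ratios 1.41 apart on the dye-swapped arrays, replicate 1 being nearer to 0, and the median gap between these arrays was 0.58 over all genes. Spot brightness was not used here, so that the part of a dim channel was not tested. Ratios of whole numbers to the most frequent value of an array recurred, and 0 of the 33 values of the 11 member probes were at one (tolerance 0.001 on the log2 scale). A ratio of 2, for instance, was held by 102, 103 and 152 of the 38880 probes on replicates 1 to 3. Such values were rare, so that 0 of 33 says little about the member probes.

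Lss, which closes the epoxide of squalene to lanosterol, was the only member with a mean above 0 on all 3 arrays, a pattern held by 13.5% of genes. It read 0.29, 0.23 and 0.72, with a mean of 0.49 ± 0.27 (moderated SE, limma's adjusted p = 0.852) and a 95% interval from -0.61 to 1.60. Its probes did not share that pattern. One read 0.81, 0.58 and 0.60 and the other -0.22, -0.11 and 0.84, so that they lay on opposite sides of 0 in pair 1 and on the same side in pair 2.

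Hmgcs1 condenses acetyl-CoA units to HMG-CoA at the head of the chain, and Dhcr7 makes cholesterol from 7-dehydrocholesterol at its end. Both had 1 probe and changed sign between the dye-swapped arrays. Hmgcs1 read 0.52, -0.40 and 0.51 on replicates 1 to 3, and Dhcr7 read 0.15, -0.64 and 0.74. Each was above 0 on the arrays with mutant RNA in Cy5 and below 0 on the array with it in Cy3, a pattern of signs that 11.4% of genes had. Within pair 1 the dye-swapped arrays were 0.92 apart for Hmgcs1 and 0.79 apart for Dhcr7, more than the means of 0.28 ± 0.27 and 0.25 ± 0.40 (moderated SE). The 95% intervals ran from -0.82 to 1.38 and from -1.43 to 1.92.

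**Figure D2:**
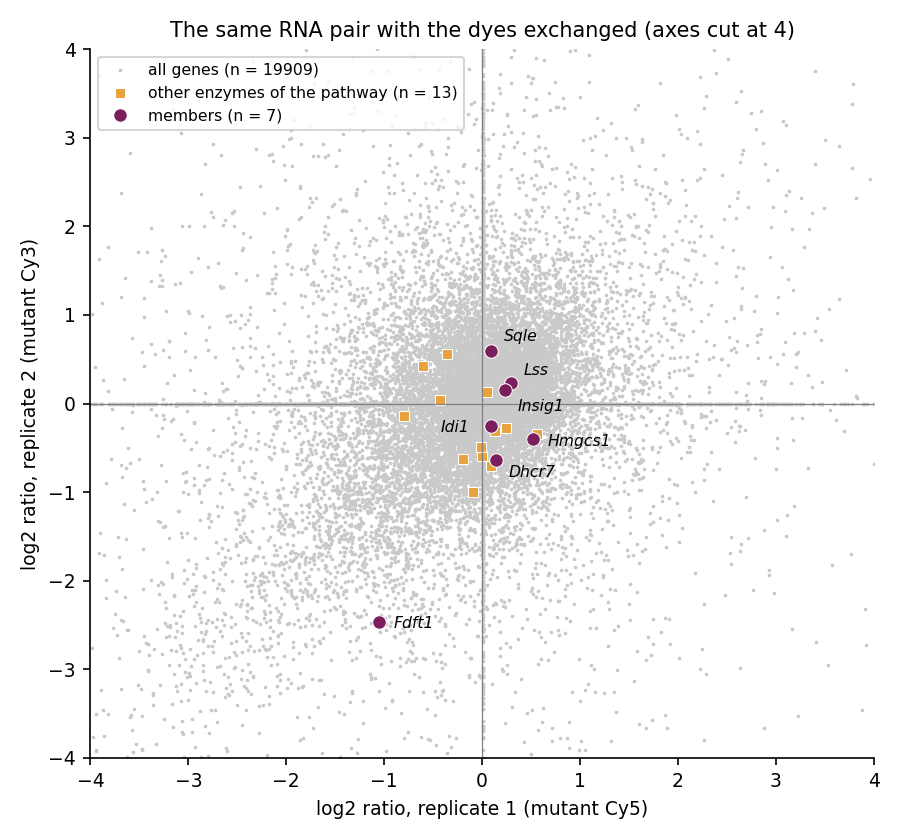
Log2 ratios of replicate 1 (horizontal axis) and replicate 2 (vertical axis), which hold the same RNAs with the dyes exchanged, for all 19909 genes (grey), 13 other enzymes of the pathway (squares) and the 7 members (circles). Genes beyond 4 on either axis are outside the frame. Sqle is the only member whose value on replicate 2 exceeds that on replicate 1.

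Sqle, squalene epoxidase, adds the oxygen across which the ring later closes. Its gene mean was 0.09, 0.59 and -0.40, above 0 on both arrays of pair 1 and below it in pair 2. The 2 probes read -0.28 and 0.47 on replicate 1, 0.65 and 0.54 on replicate 2, and -0.09 and -0.70 on replicate 3, so that they differed in sign on replicate 1. The mean over pairs was -0.03 ± 0.33 (moderated SE), with a 95% interval from -1.41 to 1.36.

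Insig1, the anchor of SCAP, had the same order of signs, at 0.24, 0.15 and -0.38. Above 0 on both arrays of pair 1 and below it in pair 2 were 12.3% of all genes. Its 3 probes read 0.75, -0.39 and 0.34 on replicate 1, 0.39, -0.05 and 0.11 on replicate 2, and -0.30, -0.55 and -0.27 on replicate 3. In pair 2 all 3 probes were below 0, and in pair 1 a single probe was. The mean over pairs was -0.09 ± 0.29 (moderated SE), with a 95% interval from -1.30 to 1.11.

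Idi1 isomerises isopentenyl diphosphate, the building block of all isoprenoids. Its 1 probe read 0.09, -0.25 and -0.28. The mean was -0.18 ± 0.23 (moderated SE, limma's adjusted p = 0.862), with a 95% interval from -1.12 to 0.75. The 95% intervals of the 6 genes besides Fdft1 all held 0 and reached at least to -0.61 on one side and to 0.75 on the other. Differences of that size were thus not excluded with 2 pairs. Fdft1 at a mean of -2.42 was not called by limma's adjusted test, but its moderated SE of 0.51 was the largest among the members. The size that the test could detect for the other genes is thus not known from it.

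Probes of the same gene differed as well. On replicate 1 the highest and lowest probe were 1.14 apart for Insig1, 1.03 for Lss and 0.76 for Sqle, where the median over 6005 genes with 2 or 3 probes was 0.74. On replicate 3 these gaps were 0.28, 0.23 and 0.62, against a median of 1.05. Lrp1, a lipoprotein receptor gene with 95 spots on the array, gave a further measure of the spread. Its spots had SDs of 1.248, 0.955 and 1.267 on replicates 1 to 3, and whether they hold 1 oligonucleotide is unknown here.

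The 2 pairs did not order the members alike. Over the 7 genes Spearman's rho between pair 1 and pair 2 was 0. Pearson's r was 0.85 with Fdft1 and -0.37 over the 6 other genes. These are descriptions across a few genes that share arrays, and over all genes r was -0.09. On pair 1 the 6 others ranged up to 0.34, the value of Sqle, and on pair 2 up to 0.74, the value of Dhcr7.

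**Figure D3:**
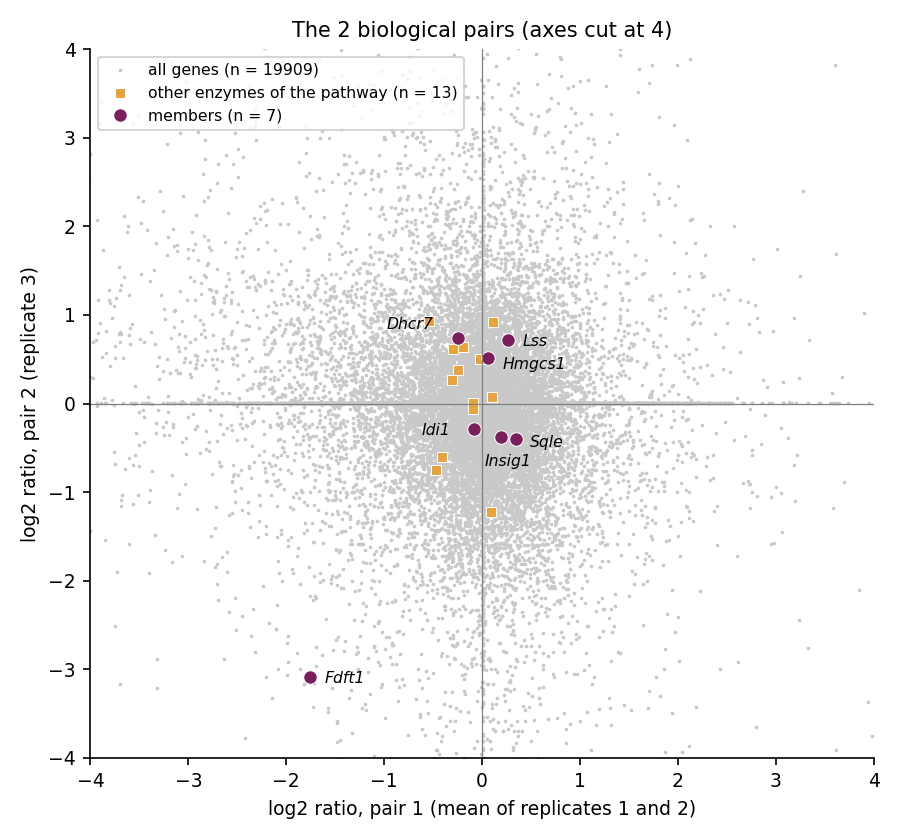
Log2 ratios of pair 1 (mean of replicates 1 and 2, horizontal axis) and pair 2 (replicate 3, vertical axis) for all 19909 genes (grey), 13 other enzymes of the pathway (squares) and the 7 members (circles). Genes beyond 4 on either axis are outside the frame. Fdft1, at -1.76 and -3.08, stands apart from the other members, which lie within 0.75 of 0 on both axes.

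A list of 16 further enzymes of the chain had 13 measured, and the others were not analysed here. Of the 13, 0 passed limma's test, 0 were above 0 on all arrays and 2 were below, beside 11.4% of all genes below on all. None was 1.5-fold from 1 in 1 direction on all arrays. Their medians were -0.01, -0.31 and 0.26 on replicates 1 to 3, and those of the 7 members were 0.15, -0.25 and -0.28.

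The enzymes next to Fdft1 in the chain had other values. Fdps, which makes the farnesyl diphosphate that Fdft1 uses, read 0.56, -0.34 and 0.92 as the mean of 2 probes, with a mean over pairs of 0.51 ± 0.35 (moderated SE). Sqle and Lss, which follow it, are given above. The other enzymes before it were Mvk, mevalonate kinase, at 0.001, -0.59 and 0.62, Pmvk, phosphomevalonate kinase, at -0.43, 0.04 and 0.64, and Mvd, which makes isopentenyl diphosphate, at 0.13, -0.31 and 0.01. Mvd and Fdps thus had the signs of Hmgcs1 and Dhcr7, above 0 with mutant RNA in Cy5 and below with it in Cy3, and so did Mvk as deposited, though its 0.001 on replicate 1 is below that array's median.

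After lanosterol, the reductase Lbr, also a protein of the inner nuclear membrane, was below 0 on all arrays at -0.20, -0.63 and -0.60. Nsdhl, which removes a carboxyl group in sterol demethylation, was too, at -0.79, -0.14 and -0.75. Their means were -0.51 ± 0.22 and -0.61 ± 0.24 (moderated SE, limma's adjusted p = 0.852 for both), and the 3 probes of Nsdhl differed in sign on 1 array. Cyp51, the demethylase of lanosterol, read 0.05, 0.13 and -1.22, and its 2 probes differed in sign on both arrays of pair 1 and were both below 0 in pair 2. The reductase Tm7sf2 read -0.01, -0.49 and 0.38. Msmo1, the methyl oxidase of sterols, read 0.24, -0.28 and 0.50. Hsd17b7, a ketosteroid reductase, read -0.60, 0.42 and -0.07, and Erg28, a scaffold of the demethylation enzymes, -0.36, 0.55 and 0.07. Ebp, the sterol isomerase, read -0.09, -0.997 and 0.93, and Sc5d, the desaturase that makes 7-dehydrocholesterol for Dhcr7, 0.09, -0.71 and 0.26. Erg28 and Sc5d had 2 probes each, which differed in sign on 1 array. The 7 of these 9 enzymes besides Lbr and Nsdhl had values on both sides of 0.

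**Figure D4:**
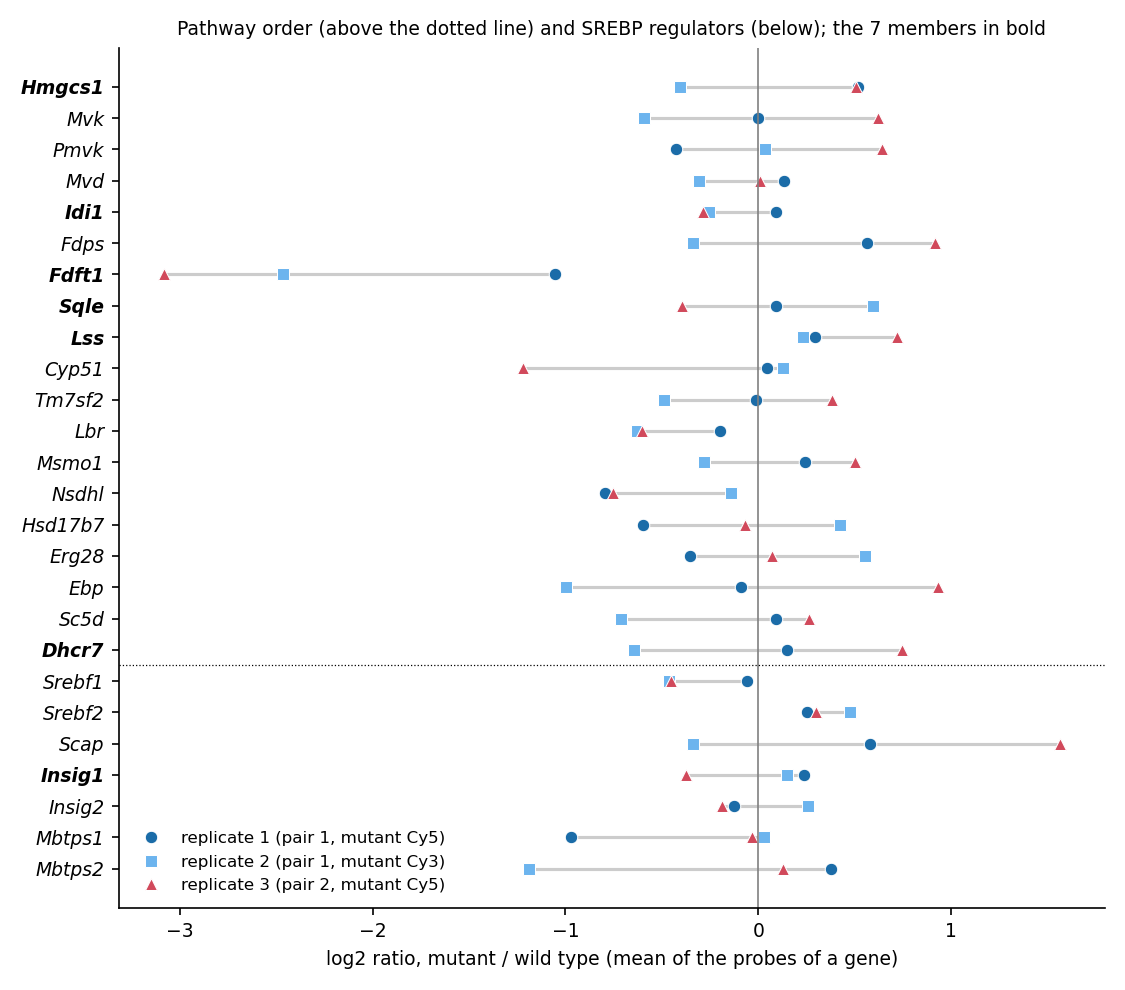
Log2 ratio of mutant over wild type (horizontal axis, mean of the probes of a gene) on each of the 3 arrays for the measured enzymes in pathway order and, below the dotted line, the SREBP regulators, with grey lines joining the lowest and highest array. Fdft1 is the only gene shown whose 3 values all lie below -1.

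The direction of the gap between the dye-swapped arrays was counted as well. Replicate 1 read higher than replicate 2 for 6 of the 7 members, for 8 of the 13 other enzymes and for 49.9% of all genes. Among the 9 enzymes after lanosterol it was 5. The counts outside the members are thus not far from the share of all genes and are no result about those enzymes. The median difference was 0.34 over the members, 0.44 over the other enzymes and -0.0030 over all genes. The sign pattern of Hmgcs1 and Dhcr7 was shared by 5 of the 13 other enzymes, beside the 11.4% of all genes. With each array shifted to a median of 0 it was held by 4 of the 13, without Mvk, beside 8.26%. The pattern was taken from those members, which are not counted here. It was held by 2 of 6 SREBP regulators and 1 of 9 uptake and fatty acid genes. So it was by 2 of 12 genes of sterol efflux, storage and transport and 0 of 10 of the isoprenoid branches. Both arrays of pair 1 hold the same RNAs, and with 1 swap an effect of dye and one of the single array cannot be told apart. With a dye term over the 3 arrays the means were 0.05 ± 0.15 for Hmgcs1, -0.10 ± 0.24 for Dhcr7 and -2.27 ± 0.65 for Fdft1 (moderated SE), and none passed (limma's adjusted p = 0.682 or more). That fit counted the arrays of pair 1 as separate. A gene's own residual in it is only the gap between replicates 1 and 3, so that a smaller SE is no gain in precision.

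Of the 6 regulators of SREBP listed beside Insig1, all were measured and none passed limma's test. Srebf2, which encodes the SREBP that chiefly drives cholesterol genes, read 0.25, 0.48 and 0.30, the only regulator above 0 on all arrays, with a mean of 0.33 ± 0.22 (moderated SE, limma's adjusted p = 0.852). Srebf1, whose product chiefly drives fatty acid genes, read -0.06, -0.46 and -0.46 and was the only one below 0 on all. Scap read 0.58, -0.34 and 1.56, with the same order of signs as Hmgcs1. Insig2, the second INSIG gene, read -0.13, 0.26 and -0.19 as the mean of 4 probes. The proteases that free SREBP, Mbtps1 and Mbtps2, read -0.97, 0.03 and -0.03, and 0.38, -1.19 and 0.13, as means of 3 and 5 probes. The probes of Insig2, Mbtps1 and Mbtps2 each differed in sign on 2 arrays.

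Fatty acid and uptake genes driven by SREBPs had 9 of 12 members measured, with 0 above and 2 below 0 on all arrays. The 2 were Scd1, a desaturase of stearoyl-CoA, at -0.69, -0.997 and -0.50, and Acly, which makes cytosolic acetyl-CoA, at -0.66, -0.62 and -0.36. Of 12 genes of sterol efflux, storage and transport, 3 were above and 0 below 0 on all arrays. They were the efflux transporter Abcg1 (0.88, 0.57 and 0.26), Lrp1 (0.24, 0.13 and 0.19 as the mean of its 95 spots, with spot medians of 0.063, 0 and 0.001) and Cyp46a1, the neuronal cholesterol hydroxylase (0.99, 0.32 and 0.06). Of 10 genes of the isoprenoid branches, which draw on the same precursors, 3 were above 0 on all arrays and 2 below. Pdss1, of ubiquinone synthesis, read 0.998, 0.28 and 0.94, Dhdds, of dolichol synthesis, 0.31, 0.16 and 0.33, and Ggps1, which makes geranylgeranyl diphosphate, 0.01, 0.56 and 0.66. Pggt1b, a subunit of a prenyltransferase, was below at -0.30, -0.05 and -0.34. The probes of Dhdds differed in sign on 3 arrays, and those of Acly, Abcg1, Ggps1 and Pggt1b each on 2, so that the 1 sign of these genes is that of the mean of their probes. Beside the shares of all genes above (13.5%) and below 0 (11.4%) on all arrays, these small counts are no result about the lists, and none of the genes passed limma's test.

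Of the 50 pathway genes besides the members, those nearest to the members' median profile over the 3 arrays, by root-mean-square distance, were Cox10 (0.13), Mvd (0.17), Srebf1 (0.20), Pdss2 (0.23) and Fads2 (0.29). The profile lies near 0 on each array, and Pdss2 was at the most frequent value on all 3, so that its nearness may be no measurement.

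Markers of muscle, cartilage, skin, meninges and vessels had medians far from 0 in pair 1 and on the other side of 0 in pair 2. Of 10 markers of muscle, cartilage and skin, 9 were below 0 on both arrays of pair 1 and 8 were above 0 in pair 2, with medians of -4.87, -4.89 and 0.76 and single genes from -9.72 to 6.62. Of all genes 26.3% were below 0 on both arrays of pair 1 and 56.4% above 0 in pair 2. The latter share counts genes at 0.001, the most frequent value of replicate 3, as above 0. All 8 meningeal and fibroblast markers were below 0 on both arrays of pair 1, with medians of -3.23, -3.36 and 1.44, and vascular and blood markers had medians of -1.31, -1.42 and 0.92. Microglial markers had medians of -1.24, -0.43 and -0.26 over 6 genes, and liver markers, from another site of cholesterol synthesis, 0.01, -0.04 and 0.23 over 6. Single genes ranged from -2.06 to 5.56 among the microglial and from -1.08 to 3.90 among the liver markers. The liver median on replicate 1 equals that array's most frequent value, 0.009. Markers of cortical neurons had medians of 2.61, 2.32 and 0.16 over 7 genes and those of progenitors 1.20, 1.15 and -0.78 over 7. Astrocyte and oligodendrocyte markers, cell types with much sterol synthesis, had medians of 0.02, -0.42 and 0.001 over 9 genes. Single genes of this list ranged from -5.04 to 1.96, and the median on replicate 3 equals that array's most frequent value. A list median near 0 thus does not mean that its genes were unchanged.

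Sqle and Insig1 had the signs of the progenitor medians, Lss those of the neuronal ones and Fdft1 those of the microglial ones. Of all genes, 12.3%, 13.5% and 11.4% had these patterns of signs. Within the lists, only 4 of 7 progenitor, 4 of 7 neuronal and 4 of 6 microglial markers had them. Fdft1 was below 0 in both pairs, while the muscle, meningeal and vascular medians were on opposite sides of 0 in the pairs. Signs alike or unlike name no cell type as a source. The part of other cell types in the ratios of the 7 genes was not tested.

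**Figure D5:**
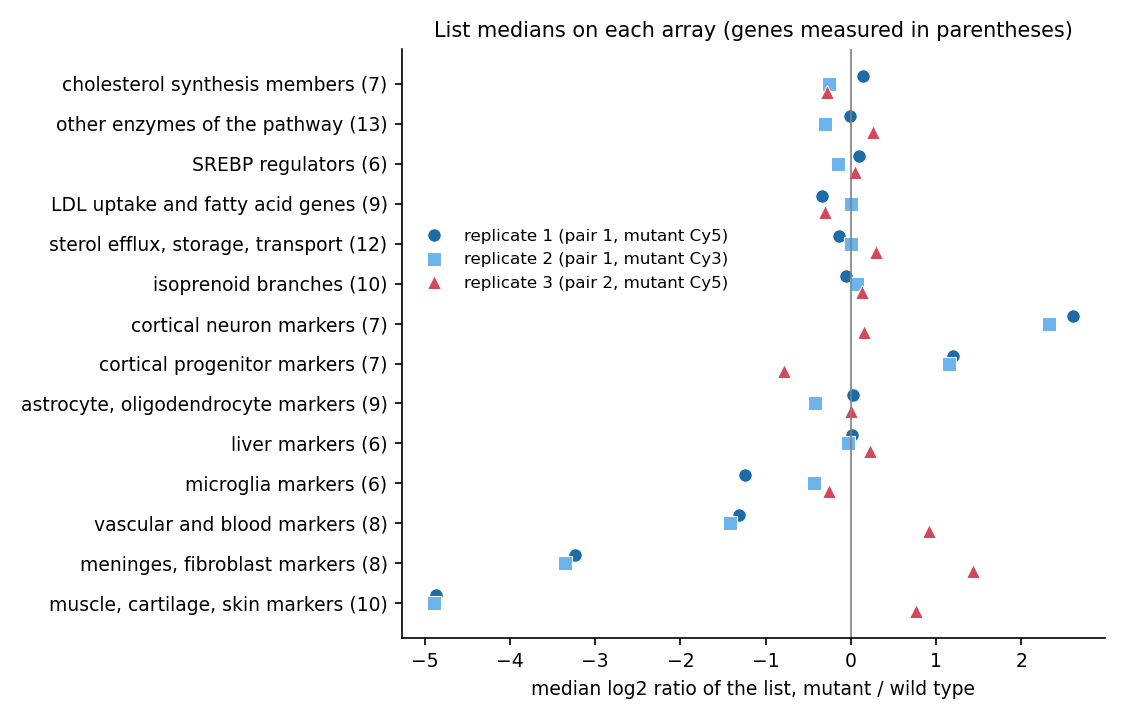
Median log2 ratio of mutant over wild type (horizontal axis) of each gene list on the 3 arrays, with the number of genes measured in parentheses. The medians of the 6 pathway groups drawn, with the 13 other enzymes as 1 group, lie within 0.35 of 0 on all arrays, and those of the muscle, meningeal, vascular and neuronal markers reach from -4.89 to 2.61.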

How the data were processed

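The deposited values are log2 ratios of the 2 channels of each array, as the authors' value table gives them. The log base and the centring near 0 were read from the values. Frequent values lay at log2 of whole-number ratios. The numerator is not stated. Per the labels' protocols, RNA was isolated with an RNeasy kit and cDNA was dyed with a Genisphere 3DNA kit. Scanner, background correction and normalization are not given in the sources used here.

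Of 38880 probes, 30457 had 1 symbol in the platform annotation, 0 several and 8423 none. Symbols were updated through RefSeq names (GRCm38.p6), and the probes of a gene were averaged. Probes without a symbol stayed as features. Replicates 1 and 2 were averaged to 1 pair and fitted with replicate 3 in limma 3.58.1 under R 4.3.3 (lmFit, eBayes, Benjamini-Hochberg over 28332 features, 2.08 degrees of freedom). The fit was also run on simulated data, and the outcome is not given here. Separate animals or litters are not stated, so p-values measure only the spread between these pairs, which may be technical. Having 3 arrays limits precision.

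The 7 genes and all lists (6 of the pathway, 8 of markers) were chosen with earlier results of these data known. All members, enzymes and SREBP regulators were named. From the other pathway lists up to 4 genes of 1 sign on all arrays were, ranked by the array nearest to 0, with Smarca1 and the 5 genes nearest to the members' median. Alternatives covered centring, scaling, probe summary, each array left out, dye, separate arrays, robust eBayes, spots at the most frequent value and thresholds. Figures used Python 3.11.15 and matplotlib 3.10.9.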

Additional observations from a re-analysis of the deposited data

How the results depend on the processing

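The count of 0 members and 0 features called held under each alternative in which limma gave a test at an adjusted p of 0.05. At an unadjusted p of 0.05 the counts were 1 and 715. Without replicate 3 only 1 pair is left, and no test was possible. The count of 2 members with 1 sign on all arrays was 3 to 4 over any 2 of the arrays (without 1 replicate), where 39.1% to 52.8% of all genes had 1 sign, and 3 of 11 with every probe as a feature. Fdft1 stayed the 1 member past 1.5-fold under every alternative, also at 2-fold and at the laxer fold tried. Its mean ranged from -2.77 to -1.76 (limma's adjusted p from 0.682 to 0.898). Of all genes, 2.93% were past 1.5-fold in 1 direction on all arrays. This share was 7.28% without replicate 1, 9.2% without replicate 2 and 15.7% without replicate 3. With spots at the most frequent value left out, it was 4.34% of the 15007 genes with values on all arrays. Of those genes 28.0% had 1 sign, beside 24.9% of all genes and 21.1% with each array shifted to a median of 0. At least 2-fold below on all arrays were 0.708% of genes. The members' median ranged from -0.07 to 0.06 with 1 array left out, and was 0.04 with a dye term and 0.08 with the arrays counted as separate.

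Members near 0 changed sign. Sqle ranged from -0.15 to 0.34 with 1 replicate left out and was at 0.22 with the dye term and at 0.0965 with separate arrays. Dhcr7 ranged from -0.25 to 0.45 with 1 replicate left out and was at -0.0985 with the dye term. Insig1 ranged from -0.11 to 0.19 with 1 replicate left out and was at 0.0396 with the dye term and 0.0032 with separate arrays. The cause was not tested. Hmgcs1, Idi1, Fdft1 and Lss kept their sign under all alternatives run, but Hmgcs1 moved from 0.28 to 0.0525 without replicate 1, 0.51 without replicate 2 and 0.056 without replicate 3. Idi1 moved from -0.18 to -0.0975 without replicate 2 and -0.0815 without replicate 3, and Lss from 0.49 to 0.26 without replicate 3.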
